A study of Oryza longistaminata with 9 samples.

Results

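Of the 46327 gene models in the expression table, 53 were described as light-harvesting, photosystem or ribulose bisphosphate carboxylase (Rubisco) genes, and their transcripts were compared between anthers of 4-mm spikelets (Ls-4mm) and 6-mm spikelets (Ls-6mm) of Oryza longistaminata, a wild rice. Members were matched by the words of their descriptions, a set proposed with earlier results of these data known, and fell into 23 antenna genes (chlorophyll a-b binding), 9 genes of photosystem I, 14 of photosystem II and 7 of Rubisco. Plastocyanins were left out of this set. The study sampled anthers at 3 stages of pollen development, which it named from its cytology, and these names were not tested here. The stages it gives as primary sporogenous cells (stage 4, Ls-4mm) and microspore mother cells (stage 6, Ls-6mm) are compared, and Ls-8.5mm was not analysed here. Each of these stages had 3 libraries of anther RNA, and the labels give no genotype or treatment that differs between them. No source used here says if libraries of 1 stage are from different plants, and p-values cover the spread between these 6 libraries only.

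In a chloroplast, chlorophyll a-b binding proteins gather light and pass its energy to the reaction centres of photosystems I and II, which drive electrons from water towards NADPH. Rubisco then fixes carbon dioxide in the Calvin cycle, and its small chain is encoded in the nucleus by a gene family while its large chain is encoded in the plastid. Young anther walls of many plants are green and hold chloroplasts, so transcripts of these genes are a usual part of an anther sample.

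The libraries of Ls-4mm held 14509449 to 16684146 counts and those of Ls-6mm 17076800 to 21232663, and 23691 genes passed the filter on low counts and were tested. The tissue was examined with marker words, and its purity was not tested. No stamen regulator searched for was found by name, so the floral regulators found could not tell anthers from other floral organs. Of the floral regulators searched for, 3 were found by name, MADS1, MADS5 and MADS7, and their summed level was 414 to 439 FPKM in Ls-4mm and 799 to 835 FPKM in Ls-6mm. Within this sum MADS1 rose from 232 to 480 FPKM and MADS7 from 94.1 to 278 FPKM, and MADS5 fell from 96.6 to 55.1 FPKM. FPKM is the fragment count scaled by the coding length and by a scaled library size. The summed level of 43 tapetum and pollen wall genes was 585 to 682 FPKM in Ls-4mm and 1315 to 1363 FPKM in Ls-6mm, with 21 of them at 0 counts in the earlier stage and 10 in the later. Most were matched by family words only. BGIOSGA029184 had 306 and 324 FPKM. BGIOSGA011938 rose from 0.02 to 282 FPKM and BGIOSGA009804 from 75.7 to 310 FPKM, while others fell, such as BGIOSGA031292 from 34.4 to 20.5 FPKM. The genes described as anther-specific, BGIOSGA000197 and BGIOSGA020294, had 0 counts in Ls-4mm, and 0 and 5 counts in Ls-6mm. The summed level of 4 meiosis genes was 98.7 to 114 FPKM in Ls-4mm and 18.8 to 22.9 FPKM in Ls-6mm. Most of this sum was BGIOSGA014841, described only by a HORMA domain, which fell from 88.4 to 14.6 FPKM. SPO11-1 had 5.83 and 4.85 FPKM, and its libraries overlapped between the stages. The Rad21/Rec8 models BGIOSGA028337 and BGIOSGA028336 fell from 5.39 to 1.28 FPKM and from 5.91 to 0.64 FPKM. The part of these shifts between cell types in the results that follow was not tested. In whole anthers, fewer cells of a type and less RNA per cell cannot be told apart.

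Transcripts of most members were more abundant in Ls-6mm. Of the 46 members tested, 41 were called higher in Ls-6mm, 4 lower and 1 in neither direction (edgeR quasi-likelihood test, Benjamini-Hochberg adjusted p under 0.05). Among all genes tested, 42.0% were called higher, 38.6% lower and 80.6% in either direction. The median log2 fold change of the tested members was 1.37 (quartiles 0.83 and 1.89), beside 0.04 for all genes tested (quartiles -0.62 and 0.98). A rise of at least 2-fold was called for 31 members, and 24.7% of all genes passed the same limit. A fall of at least 2-fold was called for 2 members, and 14.4% of all genes passed it. At an FDR of at most 0.001 together with a 2-fold change, 30 members were higher and 2 lower, beside 23.6% and 13.3% of all genes. Every Ls-6mm library lay above every Ls-4mm library for 40 members and below it for 4, and this held for 41.2% and 40.7% of all genes. The other 7 members had too few counts for the test, and 1 of them had no count in any library.

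**Figure D1:**
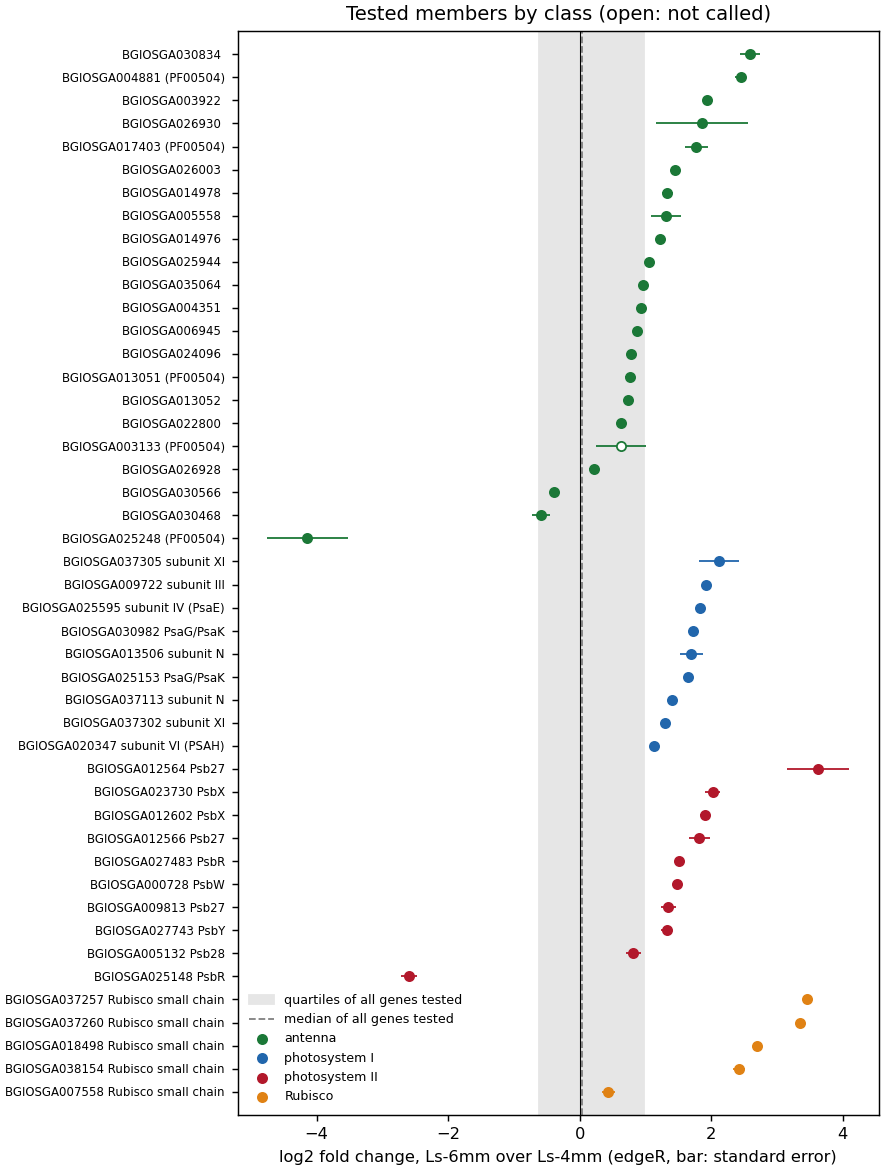
Log2 fold change of Ls-6mm over Ls-4mm (x axis, edgeR) for each of the 46 tested members, coloured by class, with bars for the standard error. Points for 41 members were called higher, the 4 members called lower lie at -0.40, -0.59, -2.60 and -4.14, and the open point at 0.62 was not called.

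The classes rose by different amounts. Summed over its members, the antenna level was 2144, 2465 and 2347 FPKM in the Ls-4mm libraries and 4878, 4721 and 4836 FPKM in the Ls-6mm libraries, a ratio of the means of 2.08. The 23 genes of both photosystems, here called the core, summed to 1017, 1115 and 1060 FPKM in Ls-4mm and to 2976, 2802 and 2892 FPKM in Ls-6mm, a ratio of 2.72. Core is a label only, as the group holds other subunits and assembly factors but not the large proteins that bind the reaction centre pigments. Rubisco summed to 131, 140 and 134 FPKM in Ls-4mm and to 983, 987 and 983 FPKM in Ls-6mm, a ratio of 7.30. In no class did the libraries of the stages overlap, and the Ls-6mm libraries of Rubisco differed from each other by little. All members together took 0.255% ± 0.016 of the Ls-4mm counts and 0.562% ± 0.0091 of the Ls-6mm counts (SD, n = 3).

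**Figure D2:**
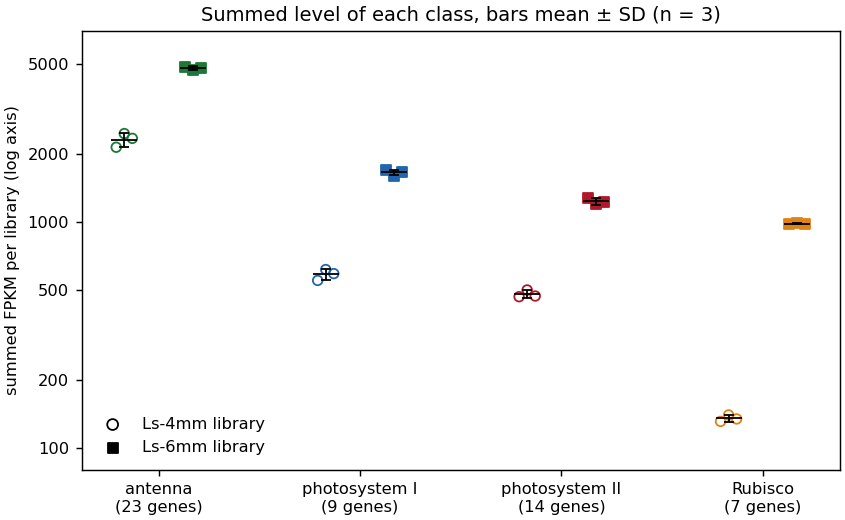
Summed FPKM of each class in each library (log axis), with open circles for Ls-4mm, filled squares for Ls-6mm and bars for the mean and SD of 3 libraries. The Ls-6mm libraries lie above the Ls-4mm libraries in every class, by ratios of the means of 2.08 for antenna, 2.83 for photosystem I, 2.57 for photosystem II and 7.30 for Rubisco.

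The balance between the classes moved as well. The antenna sum was 2.18 ± 0.060 times the core sum in Ls-4mm, against 1.67 ± 0.024 times in Ls-6mm (SD, n = 3). The Rubisco sum was 0.127 ± 0.0017 of the core sum in Ls-4mm, against 0.341 ± 0.011 in Ls-6mm. Against the antenna, the Rubisco sum stood at 5.83% in Ls-4mm and 20.5% in Ls-6mm. The ratio of photosystem I to photosystem II moved less, from 1.22 ± 0.039 to 1.34 ± 0.012. The photosystem II and core sums leave out the PsbP and PsbQ families, whose descriptions lack the matched words. A PsbP gene left out (BGIOSGA024841) had 138 FPKM in Ls-4mm and 393 FPKM in Ls-6mm. The photosystem II sum was 479 and 1233 FPKM, so ratios that use these sums hold for the matched genes only. None of these ratios overlapped between the stages, and an exact permutation test of 3 libraries against 3 cannot go below p = 0.10, so none was run on them.

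Of the classes, the antenna had the highest summed level in both stages. Among 22 tested antenna genes, Ls-6mm was higher for 18 and lower for 3, and 1 was not called. The median log2 fold change was 0.95 (from -4.14 to 2.59), and 10 rises were of at least 2-fold. The descriptions of 17 antenna genes name the protein, and 15 of these were higher and 2 lower. The other 6 carry only the family match PF00504, and of the 5 that could be tested 3 were higher, 1 was lower and 1 was not called. The files do not say which antenna complex each gene belongs to, so members are given by identifier.

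A single gene accounted for much of the antenna signal. BGIOSGA003922 (chromosome 1 from 26301876 to 26302661) was measured at 449, 528 and 498 FPKM in Ls-4mm and at 1864, 1777 and 1827 FPKM in Ls-6mm. It was the most abundant member of the whole set in both stages, its log2 fold change was 1.93 (SE 0.05, adjusted p = 9.88e-16), and its share of the antenna sum went from 21.2% ± 0.24 to 37.9% ± 0.30 (SD, n = 3). Positions are printed as the table lists them. The identifiers carry the prefix of an Oryza sativa subsp. indica annotation while the study points to an O. longistaminata sequence, so the assembly behind the positions is not settled here.

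The gene that ranked second among the antenna genes went the other way. BGIOSGA030566 (chromosome 9 from 9349491 to 9350288) stood at 322, 355 and 328 FPKM in Ls-4mm and at 247, 238 and 258 FPKM in Ls-6mm. All its Ls-6mm libraries were below all its Ls-4mm libraries, and its log2 fold change was -0.40 (SE 0.05, adjusted p = 4.35e-07). Its rank among antenna genes went from 2 to 8 and its share of the antenna sum from 14.5% to 5.14%. BGIOSGA022800 (chromosome 6) had 289, 341 and 297 FPKM in Ls-4mm and 478, 459 and 460 FPKM in Ls-6mm, with a log2 fold change of 0.63. It rose less than the class as a whole, and its share of the antenna sum went from 13.3% to 9.68%. The fourth most abundant antenna gene over both stages, BGIOSGA025944 on chromosome 7, had 145, 169 and 174 FPKM in Ls-4mm and 332, 326 and 332 FPKM in Ls-6mm, with a log2 fold change of 1.06 and no overlap. The 7 antenna genes BGIOSGA024096, BGIOSGA014976, BGIOSGA035064, BGIOSGA004351, BGIOSGA026003, BGIOSGA013052 and BGIOSGA006945 were each called higher, with log2 fold changes from 0.73 (BGIOSGA013052) to 1.45 (BGIOSGA026003) and Ls-6mm levels from 102 to 304 FPKM.

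**Figure D3:**
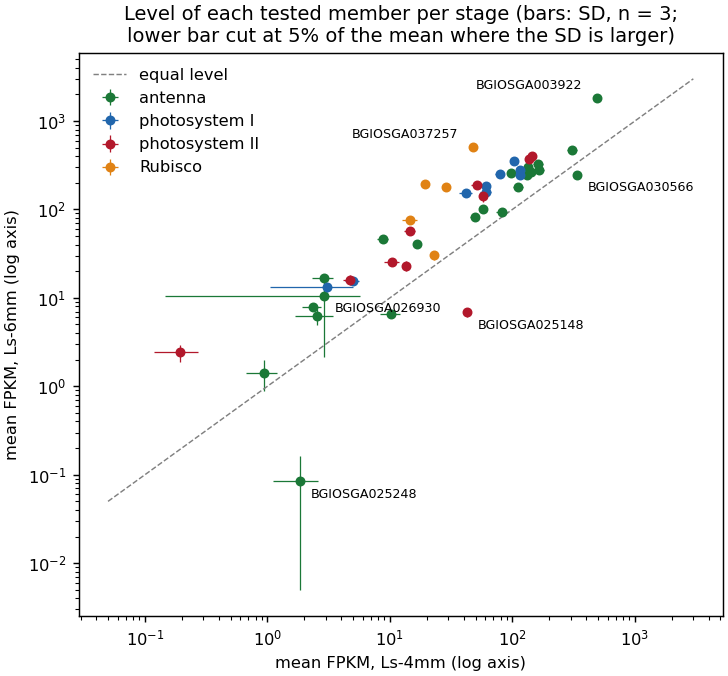
Mean FPKM in Ls-6mm (y axis) against Ls-4mm (x axis) for the 46 tested members, both on log axes, with SD bars (n = 3) and a dashed line of equal level. BGIOSGA003922 stands highest at 491 and 1822 FPKM, and BGIOSGA030566, BGIOSGA025148 and BGIOSGA025248 are among the points below the line.

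Several antenna genes of low level changed by large factors, some up and some down. The largest rise was that of BGIOSGA030834 (chromosome 9), with 3.34, 3.06 and 2.27 FPKM in Ls-4mm and 17.4, 15.7 and 17.7 FPKM in Ls-6mm (log2 fold change 2.59, SE 0.15). A family-match gene, BGIOSGA004881 on chromosome 1, had 8.50, 9.80 and 8.07 FPKM in Ls-4mm and 46.5, 45.9 and 47.8 FPKM in Ls-6mm (log2 fold change 2.45). Both were clear of overlap. BGIOSGA030468 (chromosome 9), a named chlorophyll a-b binding protein, had 8.24, 10.4 and 11.9 FPKM in Ls-4mm and 6.52, 6.75 and 6.58 FPKM in Ls-6mm, a fall with a log2 fold change of -0.59 (SE 0.14, adjusted p = 0.00101). The family-match gene BGIOSGA025248 (chromosome 7) had 25, 16 and 14 counts in Ls-4mm, against 1, 2 and 0 in Ls-6mm. The fitted log2 fold change of BGIOSGA025248 was -4.14 (SE 0.62, adjusted p = 1.04e-05), and from the summed counts it was 20.3-fold lower in Ls-6mm (95% Clopper-Pearson interval 6.58 to 101, counting error only). Its neighbour BGIOSGA025249 had 2 counts in Ls-4mm, and its count of 0 in Ls-6mm allows up to 0.0956 FPKM there. BGIOSGA003133 had 0.64, 1.02 and 1.15 FPKM in Ls-4mm and 2.07, 1.16 and 1.06 FPKM in Ls-6mm, and this difference was not called (log2 fold change 0.62, SE 0.38, adjusted p = 0.145).

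Several antenna genes lie beside a copy. Reads kept in the counting were aligned uniquely, so values of near-identical copies are uncertain, and no strand setting is stated in these sources. The copies BGIOSGA014976 and BGIOSGA014978, both with 759 bases of coding length and with starts 11063 bases apart on chromosome 4, had a ratio of 8.03 ± 0.094 in Ls-4mm, against 7.44 ± 0.33 in Ls-6mm (SD, n = 3). The copies BGIOSGA013052 and BGIOSGA013051 on chromosome 3 stood at 2.23 ± 0.15 and 2.19 ± 0.16. In these pairs both copies rose together and the more abundant copy stayed the same.

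A further pair, chosen here after its values were seen, was uneven between libraries. BGIOSGA026928 and BGIOSGA026930 (chromosome 8, starts 56200 bases apart) both have 735 bases of coding length. BGIOSGA026930 had 0.70, 7.30 and 0.71 FPKM in Ls-4mm and 0.86, 15.7 and 14.8 FPKM in Ls-6mm, so that 1 library of Ls-4mm and 2 of Ls-6mm were high and the stages overlapped. Its highest library was 10.4 times its lowest in Ls-4mm and 18.3 times in Ls-6mm, against a median over genes of 1.12 and 1.10. Of 17524 genes with at least 100 counts in each stage, 2 exceeded a ratio of 10 in both stages, BGIOSGA026930 and BGIOSGA018093. The neighbour BGIOSGA026928 had 71.9, 91.1 and 85.7 FPKM in Ls-4mm and 91.2, 93.5 and 96.7 FPKM in Ls-6mm, without such a split. BGIOSGA026930 was called higher (log2 fold change 1.85, SE 0.70, adjusted p = 0.0224), but not by DESeq2 (adjusted p = 0.208) or by limma (adjusted p = 0.176 and 0.207 with the larger and the smaller pseudocount). In edgeR it was not called without Ls-4mm replicate 1 (adjusted p = 0.0587), Ls-4mm replicate 3 (0.0957), Ls-6mm replicate 2 (0.107) or Ls-6mm replicate 3 (0.0843). BGIOSGA026928 was called higher (log2 fold change 0.22, SE 0.07, adjusted p = 0.00916), but not with scaling by library size only, where its log2 fold change was 0.08 (adjusted p = 0.273). By limma BGIOSGA026928 was not called either (adjusted p = 0.0619 and 0.0698 with the larger and the smaller pseudocount).

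**Figure D4:**
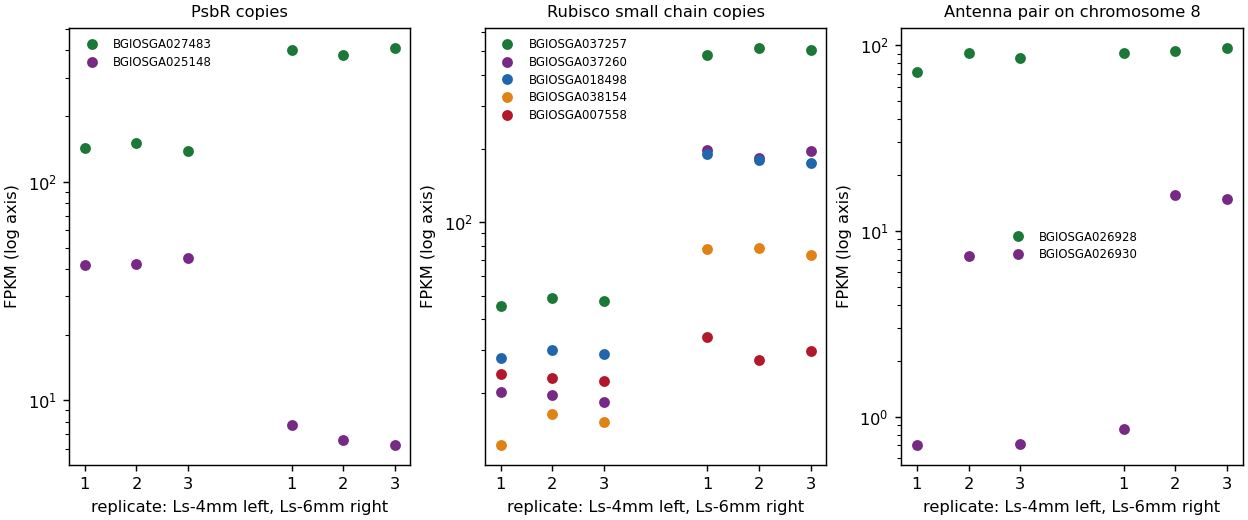
FPKM (log axis) in each library for the PsbR copies, the Rubisco small chain copies and an antenna pair on chromosome 8, with replicates 1 to 3 of Ls-4mm on the left of each panel and of Ls-6mm on the right. BGIOSGA025148 went down while BGIOSGA027483 went up, BGIOSGA007558 moved less than the other small chains, and BGIOSGA026930 was high in 1 library of Ls-4mm and 2 of Ls-6mm.

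Every gene of photosystem I rose. All 9 were tested, and all 9 were higher in Ls-6mm by at least 2-fold with no overlap. The median log2 fold change was 1.70 (from 1.13 to 2.12). PsaE (BGIOSGA025595, chromosome 7), a subunit on the stromal side where ferredoxin docks, had 102, 110 and 99.6 FPKM in Ls-4mm and 367, 355 and 351 FPKM in Ls-6mm (log2 fold change 1.82, SE 0.05). It ranked 3 in the class in Ls-4mm and 1 in Ls-6mm, passing subunits XI and VI. Subunit XI (BGIOSGA037302, chromosome 12), also known as PsaL, had 106, 122 and 121 FPKM in Ls-4mm and 282, 256 and 291 FPKM in Ls-6mm (log2 fold change 1.29, SE 0.06). Subunit VI (BGIOSGA020347, chromosome 5), known as PsaH and found where mobile antenna docks, had 111, 119 and 115 FPKM in Ls-4mm and 257, 231 and 248 FPKM in Ls-6mm. With a log2 fold change of 1.13 (SE 0.05) it rose least. A PsaG/PsaK family gene (BGIOSGA030982, chromosome 9), of the peripheral membrane subunits, had 71.4, 84.7 and 79.8 FPKM in Ls-4mm and 252, 248 and 257 FPKM in Ls-6mm (log2 fold change 1.72, SE 0.06).

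The remaining genes of photosystem I followed the same direction. Subunit III (BGIOSGA009722), the docking subunit for plastocyanin, rose from 41.9 ± 5.05 to 154 ± 4.92 FPKM (SD, n = 3), with a log2 fold change of 1.92. A further PsaG/PsaK gene (BGIOSGA025153) and the more abundant subunit N gene (BGIOSGA037113) rose with log2 fold changes of 1.65 and 1.41, and the less abundant subunit N gene (BGIOSGA013506) with 1.70. The largest fitted rise was that of BGIOSGA037305, a subunit XI copy on chromosome 12 with its start 62129 bases from that of BGIOSGA037302. It had 0.76, 4.41 and 3.97 FPKM in Ls-4mm and 13.2, 11.7 and 14.9 FPKM in Ls-6mm (log2 fold change 2.12, SE 0.30). Replicate 1 of Ls-4mm was low, and the highest Ls-4mm library was 5.82 times the lowest.

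Photosystem II held both a broad rise and a steep fall. Of its 14 genes 10 were tested, 9 of them higher in Ls-6mm and 1 lower. The median log2 fold change was 1.49 (from -2.60 to 3.62). PsbW (BGIOSGA000728, chromosome 1), a small membrane subunit, had 133, 148 and 132 FPKM in Ls-4mm and 381, 357 and 382 FPKM in Ls-6mm (log2 fold change 1.48, SE 0.05). PsbX (BGIOSGA012602, chromosome 3) had 48.3, 58.8 and 48.2 FPKM in Ls-4mm and 199, 184 and 184 FPKM in Ls-6mm (log2 fold change 1.90, SE 0.07). PsbY (BGIOSGA027743, chromosome 8) had 55.8, 57.6 and 60.8 FPKM in Ls-4mm and 158, 143 and 121 FPKM in Ls-6mm (log2 fold change 1.32, SE 0.08). PsbX and PsbY are small subunits that each span the thylakoid membrane, and none of these 3 genes overlapped between stages. A less abundant PsbX copy (BGIOSGA023730) rose from 14.5 ± 1.46 to 57.4 ± 4.60 FPKM (SD, n = 3).

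The PsbR copies moved in opposite directions. PsbR is a lumen-side subunit that helps to hold the oxygen-evolving proteins. BGIOSGA027483 (chromosome 8 from 6171213 to 6172691) had 144, 150 and 139 FPKM in Ls-4mm and 402, 380 and 410 FPKM in Ls-6mm, with a log2 fold change of 1.50 (SE 0.05, adjusted p = 1.15e-14). BGIOSGA025148 (chromosome 7 from 2436100 to 2437192) had 41.7, 41.9 and 44.9 FPKM in Ls-4mm and 7.74, 6.62 and 6.26 FPKM in Ls-6mm, with a log2 fold change of -2.60 (SE 0.12, adjusted p = 3.16e-12). The ratio of BGIOSGA027483 to BGIOSGA025148 was 3.37 ± 0.25 in Ls-4mm, against 58.3 ± 6.82 in Ls-6mm (SD, n = 3), and the share of BGIOSGA025148 in the PsbR sum went from 22.9% to 1.70%. The third PsbR copy, BGIOSGA025149, which neighbours BGIOSGA025148, had 8 counts in Ls-4mm, against 3 in Ls-6mm, and was not tested.

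Psb27 and Psb28 are assembly factors of photosystem II rather than lasting subunits. The Psb27 genes BGIOSGA009813 and BGIOSGA012566 rose with log2 fold changes of 1.34 and 1.82, and Psb28 (BGIOSGA005132) with 0.81. The Psb27 gene BGIOSGA012564, next to BGIOSGA012566, had 5 counts in Ls-4mm, against 71 in Ls-6mm, a ratio of 12.9 after depth scaling (95% Clopper-Pearson interval 5.26 to 40.8, counting error only), with a fitted log2 fold change of 3.62 (SE 0.48). Without these 4 assembly factor genes, 37 of 42 tested members were higher and 4 lower. A second PsbW gene (BGIOSGA020157) had 9 counts in Ls-4mm, against 15 in Ls-6mm. The subunit H genes, plastid-encoded in plants, had 1 count in all libraries for BGIOSGA039485 and none for BGIOSGA039463, whose count of 0 allows up to 0.268 FPKM in Ls-4mm and 0.243 FPKM in Ls-6mm. The libraries were made from RNA enriched with oligo(dT).

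Rubisco small chain genes had the highest median rise of the 4 classes. All 5 that could be tested were higher in Ls-6mm without overlap, 4 of them by at least 2-fold, and the median log2 fold change was 2.70. BGIOSGA037257 (chromosome 12 from 9092888 to 9093525) had 45.6, 49.0 and 47.5 FPKM in Ls-4mm and 484, 516 and 509 FPKM in Ls-6mm, 10.6-fold higher by the means, with a log2 fold change of 3.45 (SE 0.05, adjusted p = 3.63e-19). BGIOSGA037260, on the same chromosome with its start 37251 bases away, had 20.2, 19.6 and 18.3 FPKM in Ls-4mm and 197, 183 and 196 FPKM in Ls-6mm, with a log2 fold change of 3.35 (SE 0.06). Both copies have 528 bases of coding length, and their ratio was 2.45 ± 0.18 in Ls-4mm, against 2.62 ± 0.18 in Ls-6mm (SD, n = 3).

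The other small chains rose by less. BGIOSGA018498 (chromosome 5) had 27.7, 29.9 and 28.7 FPKM in Ls-4mm and 190, 180 and 175 FPKM in Ls-6mm (log2 fold change 2.70, SE 0.06). BGIOSGA038154, on the unplaced sequence CH398510.1, had 12.2, 16.4 and 15.2 FPKM in Ls-4mm and 77.9, 78.7 and 73.3 FPKM in Ls-6mm (log2 fold change 2.42, SE 0.09). BGIOSGA007558 (chromosome 2), the longest of the tested small chains with 552 bases of coding length, had 23.8, 23.0 and 22.4 FPKM in Ls-4mm and 34.0, 27.4 and 29.6 FPKM in Ls-6mm (log2 fold change 0.43, SE 0.10, adjusted p = 6.73e-04). It ranked 3 among the Rubisco genes in Ls-4mm and 5 in Ls-6mm. BGIOSGA037257 led in both stages, and its share of the Rubisco sum went from 35.1% ± 0.27 to 51.1% ± 1.65 (SD, n = 3). The libraries of BGIOSGA037260 and BGIOSGA018498 overlapped in Ls-6mm, so their order there was not beyond the spread.

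The last Rubisco genes had few counts. The large chain gene BGIOSGA040203 had 8, 13 and 14 counts in Ls-4mm, against 4, 10 and 0 in Ls-6mm, and did not pass the filter. Without the filter it was called lower (log2 fold change -1.44, SE 0.58, adjusted p = 0.0246). The small chain gene BGIOSGA040274 had 0 counts in Ls-4mm, which allows up to 0.143 FPKM, and 1 count in Ls-6mm.

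Replicates of the members were close. Among the 40 members with at least 100 counts in each stage, the median ratio of the highest to the lowest library was 1.17 in Ls-4mm and 1.07 in Ls-6mm. The lowest Ls-4mm value fell in replicate 1 for 28 of the 46 tested members, in replicate 2 for 5 and in replicate 3 for 13. Replicate 1 held the lowest value for 35.1% of all tested genes. Leaving out this library gave 40 members higher and 5 lower.

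Other genes of the pathway were taken from lists of description words. Together the lists other than the PsbP and PsbQ families held 78 genes, with 59 of them tested, 36 higher in Ls-6mm and 13 lower. These are 61.0% and 22% of the tested genes, beside 42.0% and 38.6% of all genes. In the Calvin cycle list all 4 tested genes were higher, and their median log2 fold change was 2.70. Phosphoribulokinase (BGIOSGA008865), which makes the carbon dioxide acceptor of Rubisco, had 6.40, 6.29 and 6.52 FPKM in Ls-4mm and 34.9, 35.7 and 39.8 FPKM in Ls-6mm (log2 fold change 2.56, SE 0.08). Sedoheptulose bisphosphatase (BGIOSGA009376), of the regeneration phase, rose from 1.48 ± 0.35 to 14.1 ± 1.29 FPKM (log2 fold change 3.29, SE 0.15). No library of one stage overlapped with the other for either enzyme.

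The electron transport list holds carriers between the photosystems, and ferredoxin, ferredoxin-NADP reductases and a subunit of the chloroplast NAD(P)H-quinone oxidoreductase that act after photosystem I or beside the chain. Of its 9 tested genes 7 were higher (77.8%) and 2 lower (22.2%), and the median log2 fold change was 1.38. PetM of the cytochrome b6f complex (BGIOSGA013626) had 82.4, 91.3 and 96.6 FPKM in Ls-4mm and 315, 294 and 291 FPKM in Ls-6mm (log2 fold change 1.77, SE 0.06). Plastocyanin (BGIOSGA022117), which carries electrons to photosystem I, had 37.1, 47.5 and 40.3 FPKM in Ls-4mm and 217, 188 and 201 FPKM in Ls-6mm (log2 fold change 2.31, SE 0.08). Both genes that fell are described only as ferredoxin-NADP reductase (BGIOSGA009700 and BGIOSGA024823, log2 fold changes -0.45 and -0.37), while the leaf isozymes BGIOSGA007302 and BGIOSGA022091 rose (2.21 and 0.97). These 4 reductases were named after their values were seen. The PsbP and PsbQ families, listed after the descriptions had been read, include proteins that stabilise the oxygen-evolving site. Of their 17 tested genes, matched mostly by family only, 11 were higher (64.7%) and 1 was lower. A PsbP gene (BGIOSGA024841) led them at 138 ± 4.40 and 393 ± 17.3 FPKM, and the most abundant PsbQ gene (BGIOSGA025897) had 101 ± 15.3 and 224 ± 5.30 FPKM (SD, n = 3).

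**Figure D5:**
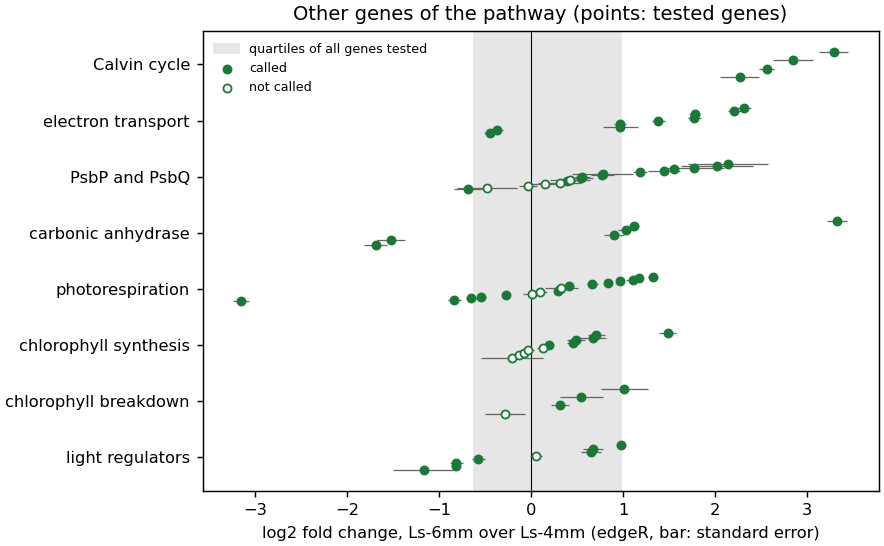
Log2 fold change of Ls-6mm over Ls-4mm (x axis, edgeR) for the tested genes of each pathway list, with bars for the standard error and open points for genes not called. The Calvin cycle genes all lie to the right (median 2.70), while the genes of the chlorophyll synthesis list, not all magnesium steps, run from -0.21 to 1.48 (median 0.19).

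The list for chlorophyll synthesis, which supplies the pigment of the antenna, also took in uroporphyrinogen and coproporphyrinogen steps and had a median change near 0. Of its 11 tested genes, 6 were higher (54.5%), 0 were lower and 5 were not called, and the median log2 fold change was 0.19. Just 4 of the tested genes are described by a magnesium step. Of these 4, 2 rose, 0 fell and 2 were not called (median 0.29). Because most of the list is not described by such a step, its median does not speak for chlorophyll alone. The most abundant gene of the list over both stages, magnesium-protoporphyrin IX methyltransferase (BGIOSGA022003), had 27.8, 38.4 and 39.1 FPKM in Ls-4mm and 54.9, 55.5 and 57.5 FPKM in Ls-6mm (log2 fold change 0.71, SE 0.09). The largest change in the list was that of a uroporphyrinogen decarboxylase (BGIOSGA012584), an early step shared with haem, with 15.1 ± 0.87 and 41.0 ± 2.90 FPKM (log2 fold change 1.48). Of 4 tested genes of chlorophyll breakdown 3 were higher, among them the pheophorbide a oxygenase genes BGIOSGA009190 (log2 fold change 0.31) and BGIOSGA016757 (1.01). With scaling by library size only, 1 of the 4 was called, and BGIOSGA009190 lost its call (log2 fold change 0.18, adjusted p = 0.101).

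The remaining lists held genes called in both directions. Of 17 tested photorespiration genes 9 were higher (52.9%) and 5 lower (29.4%), and all genes stood at 42.0% and 38.6%. A serine hydroxymethyltransferase (BGIOSGA035211) rose from 181 ± 3.78 to 314 ± 3.78 FPKM (log2 fold change 0.83), and the peroxisomal hydroxy-acid oxidase GLO3 (BGIOSGA017163) had 41.8, 44.7 and 46.3 FPKM in Ls-4mm and 5.29, 4.37 and 4.96 FPKM in Ls-6mm (log2 fold change -3.15, SE 0.09). The words of this list also matched 3 phosphoglycerate dehydrogenases of serine synthesis, and without them 8 of 14 were higher and 3 lower. Of 6 tested carbonic anhydrases, enzymes that interconvert carbon dioxide and bicarbonate, 4 were higher (66.7%) and 2 lower (33.3%), with BGIOSGA029624 the most abundant (log2 fold change 1.12) and BGIOSGA004082 the most changed, from 3.81 ± 0.43 to 37.3 ± 1.90 FPKM (3.33). The list for light and chloroplast regulators held phytochrome C (BGIOSGA013571, log2 fold change -0.82) and GATA factors. The descriptions of these GATA factors do not tie them to light or chloroplasts. Of its 8 genes 3 were higher (37.5%) and 4 lower (50%). The most abundant GATA gene, BGIOSGA033429, had 48.7, 56.1 and 58.5 FPKM in Ls-4mm and 54.1, 53.8 and 57.1 FPKM in Ls-6mm and was not called. Its log2 fold change was 0.051 and turned to -0.085 with scaling by library size only and to -0.032 without Ls-4mm replicate 1. The largest change in this list was that of a GATA factor of low level (BGIOSGA020424), with a log2 fold change of -1.17 (SE 0.34).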

How the data were processed

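RNA-seq of O. longistaminata anthers was analysed for Ls-4mm and Ls-6mm, with 3 libraries per stage placed by their titles and age labels. Ls-8.5mm was not analysed here, and 36 further value columns were not used. As the study's methods state, libraries were made from RNA enriched by oligo(dT) beads and the authors used HISAT2 2.0.5 to align read pairs, while featureCounts 1.5.0-p3 appears in the submitters' processing notes. The deposited count values are raw whole numbers per gene. The deposited FPKM values are the authors' own, scaled by a listed length that is mostly a coding length (91.5% of lengths are multiples of 3) and by a scaled library size. Read strand was not given in the sources used here.

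Members were matched on words in the descriptions: chlorophyll a-b binding, photosystem, oxygen-evolving (which matched no gene) and ribulose bisphosphate carboxylase, without plastocyanin. The members and lists were chosen with earlier results of these data known. Counts were tested across all genes in R 4.3.3 with edgeR 4.0.16 (filterByExpr with minimum count 10 and minimum total 15, TMM scaling, quasi-likelihood fit with stage as the only term), and an adjusted p under 0.05 was called. Levels are FPKM. Genes were named by a rule: in each class the 4 most abundant members, the largest called rise and fall, every member called lower or not called, all Rubisco members, and in each pathway list the most abundant and the most changed gene. Other members named here were added after their values were seen. Intervals and floors (3 counts over the libraries of a stage) cover counting error only.

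Alternatives tried were another tool (DESeq2 1.42.0, or limma 3.58.1 on log2(FPKM + 1) or log2(FPKM + 0.1)), other scaling (median of ratios, or library size only), other filters (none, or a minimum of 10 counts per library), a stricter threshold (FDR up to 0.001 and 2-fold), a block by replicate number, the omission of single libraries, summed CPM, and sums without the most abundant member. Added after the data were seen were the 10-count filter for single genes, sums without BGIOSGA026930 and BGIOSGA037305, and members without assembly factors.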

Additional observations from a re-analysis of the deposited data

How the results depend on the processing

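With an FDR of at most 0.001 and a 2-fold change, 30 members were higher and 2 lower, 9 antenna genes were higher, and 19 genes of the pathway lists were called, against 49 at the main threshold. Over the other alternatives run on all members, between 38 and 41 were higher and between 3 and 5 lower. Without the most abundant member of each class, the antenna sum rose 1.64-fold and the Rubisco sum 5.50-fold, the ratio of antenna to core was 1.98 in Ls-4mm and 1.20 in Ls-6mm, and that of Rubisco to core was 0.0951 and 0.193. With summed CPM, which is not per length, antenna to core was 3.74 and 2.86 and Rubisco to core 0.146 and 0.392. The direction of each of these shifts stayed as in the report.

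Of 639 values of single members under the alternatives, 629 kept direction and call and 10 lost the call, all in BGIOSGA026928 and BGIOSGA026930. Among the pathway genes, library size only left 1 of 3 calls in the chlorophyll breakdown list and BGIOSGA009190 uncalled (0.18), and BGIOSGA033429, which was not called, changed sign to -0.085 with library size only and ranged from -0.032 (without Ls-4mm replicate 1) to 0.10 (without Ls-4mm replicate 3) when single libraries were left out. Scaling by library size only shifted the median log2 fold change of all genes by -0.14, and 40 members were then higher and 4 lower.

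With the replicate number as a block, 41 members were higher and 4 lower, and 48 pathway genes were called. Deviations of same-numbered libraries correlated at -0.040, -0.025 and -0.014. This check cannot show if same-numbered libraries share a plant, harvest or batch.

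The 7 members that were not tested had from 0 to 35 counts in a stage, which limits any statement on their direction. The large chain was called lower with no filter, and when Ls-4mm replicate 1 or Ls-6mm replicate 2 was left out. It was tested but not called when Ls-6mm replicate 1 or replicate 3 was left out.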
